A study of Mus musculus with 20 samples.

Results

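The 10 inducible enzyme genes of inflammatory metabolism described here were followed through the liver libraries of mice given IL-1β or saline. They were taken by symbol (Nos2, Gch1, Irg1, Ptgs2, Ptges, Ch25h, Ido1, Sphk1, Odc1 and Steap4), and each symbol matched 1 row, so the set is 10 of the 37681 genes listed in each table. Of these 10, 7 reached the detection filter of 5 reads or more in no fewer than 5 libraries of any one table, and were among the 15578 genes tested. Irg1, Ptgs2 and Ido1 did not reach it in any table. All mice were wild-type C57/BL6 males of 12 weeks (C57/B6J in the study's methods). The treated group (IL-1β, n = 5) received 20 µg/kg of IL-1β intraperitoneally and the control group (untreated, n = 5) received saline, and livers were taken 4 hours later. RNA of each liver went into 1 Illumina and 1 Ion Torrent library, and reads were aligned with STAR, GSNAP or STAR followed by Bowtie2, which gave 6 tables of 10 libraries. The Illumina STAR table is the main one here. The whole liver was sampled, so in these bulk libraries fewer cells of a type and less RNA per cell cannot be told apart.

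IL-1β is a cytokine that signals through its receptor to NF-κB and MAP kinases and, in liver, sets off the acute-phase response. Inflamed tissues make a set of enzymes whose small products act as signals or weapons: nitric oxide from arginine, itaconate from the citrate cycle, prostaglandins from arachidonic acid, kynurenine from tryptophan, oxysterols from cholesterol, sphingosine 1-phosphate from sphingosine and polyamines from ornithine. Most of these enzymes are classically studied in macrophages, whereas several constitutive counterparts (Tdo2, Nos3, Ptgs1) belong to hepatocytes, endothelium or other resting cells.

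The upstream 250 bases of the members' start sites were read from RefSeq (GRCm38.p6), whose table held 8 of the 10 members (Irg1 under its present symbol, Acod1). Nos2 and Ido1 were not in it. The 3 members with over 1000 reads in every treated library (Steap4, Odc1 and Gch1) and Ch25h are shown, since they differ in response. Each runs 5′ to 3′ on the gene's strand and ends at the base before the start site. Capitals mark matches to 8 motifs searched on both strands: the NF-κB consensus, AP-1 (TGANTCA), C/EBP (TTGCNNAA), STAT (TTCNNNGAA), the interferon-stimulated response element (GAAANNGAA), the E-box (CACGTG), the TATA box (TATAAA) and a nine-base κB form (GGGANNCCC) that was added after the sequences had been read.
Steap4, chr5:7960222-7960471, + strand: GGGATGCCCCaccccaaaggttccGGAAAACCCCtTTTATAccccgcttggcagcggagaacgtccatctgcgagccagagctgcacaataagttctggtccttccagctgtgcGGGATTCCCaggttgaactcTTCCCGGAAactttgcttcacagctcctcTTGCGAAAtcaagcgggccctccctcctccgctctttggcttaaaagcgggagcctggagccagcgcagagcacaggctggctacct
Ch25h, chr19:34475149-34475398, - strand: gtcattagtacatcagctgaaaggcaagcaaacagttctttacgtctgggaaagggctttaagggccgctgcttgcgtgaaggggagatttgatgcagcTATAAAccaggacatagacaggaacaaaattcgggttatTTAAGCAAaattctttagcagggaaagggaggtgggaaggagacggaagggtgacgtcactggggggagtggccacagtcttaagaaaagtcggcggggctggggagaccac
Odc1, chr12:17544623-17544872, + strand: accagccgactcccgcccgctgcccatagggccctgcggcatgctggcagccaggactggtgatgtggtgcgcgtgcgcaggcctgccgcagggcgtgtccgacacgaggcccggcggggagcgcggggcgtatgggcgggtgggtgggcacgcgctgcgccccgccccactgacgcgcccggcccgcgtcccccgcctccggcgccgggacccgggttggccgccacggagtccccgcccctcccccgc
Gch1, chr14:47189414-47189663, - strand: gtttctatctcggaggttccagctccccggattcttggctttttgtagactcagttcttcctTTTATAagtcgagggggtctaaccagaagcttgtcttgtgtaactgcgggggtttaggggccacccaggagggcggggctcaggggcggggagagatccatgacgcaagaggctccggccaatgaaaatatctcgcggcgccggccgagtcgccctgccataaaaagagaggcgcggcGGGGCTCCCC
In the Steap4 window the capitals are, from the 5′ end, an NF-κB consensus match at -250 to -241, a second at -226 to -217, a TATAAA on the opposite strand at -215 to -210, the nine-base κB form at -136 to -128, a STAT match at -116 to -108 and a C/EBP match at -87 to -80, counted from the start site. The first κB match also holds the nine-base form, so these overlap. In Ch25h they are a TATAAA at -151 to -146 and a C/EBP match at -112 to -105, and in Gch1 a TATAAA on the opposite strand at -188 to -183 and an NF-κB consensus match at -10 to -1, which holds the nine-base form as well. None of the 8 motifs had a match in the Odc1 or Ptges window, and a lone TATAAA stood in that of Irg1 and a lone C/EBP match in that of Ptgs2. Sphk1 had 5 start sites listed, some of them overlapping, with a κB consensus match and a TATAAA at the first, AP-1 and STAT matches at the second and the third, and an E-box and an interferon element at both others. Over 32851 RefSeq promoter windows of 250 bases, 7.25% held the NF-κB consensus, 6.75% AP-1, 9.56% C/EBP, 7.02% STAT, 7.13% the interferon element, 6.02% the E-box, 12.4% TATAAA and 4.76% the nine-base form. A match is only a description of letters.

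Steap4 gave the largest number of reads by far. It encodes a metalloreductase of the STEAP family, which reduces iron and copper at membranes, and lies on chromosome 5 (NCBIM37, 7960472 to 7982213, + strand, 5 exon blocks). In the Illumina STAR table it had 49411, 75310, 65814, 69828 and 58591 reads in the treated mice ILB_9577, ILB_9578, ILB_9579, ILB_9582 and ILB_9583, and 3254, 2109, 2235, 3288 and 2082 in the untreated mice UNT_9574, UNT_9575, UNT_9576, UNT_9580 and UNT_9584. The lowest treated library was thus far above the highest untreated one. The fitted log2 fold change was 4.80 ± 0.19 (SE), a 27.9-fold rise, with an adjusted p of 1.2e-10 (edgeR quasi-likelihood test, Benjamini-Hochberg over 15578 genes). By this test 45.7% of all genes tested were called, 22.7% as higher and 22.9% as lower with IL-1β, so a call as such sets no gene apart, and the size of the change does more. Steap4 ranked 53 among the 15578 genes by log2 fold change. It took 0.618% of the reads of the treated libraries at the median (0.464% to 0.713%) against 0.0202% untreated, and moved from rank 578 to rank 20 of all genes by mean scaled count. The other 5 tables gave 4.78 to 4.84.

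Odc1 and Gch1 were the other 2 members with over 1000 reads in treated livers. Odc1 encodes ornithine decarboxylase, the rate-limiting step of polyamine synthesis, on chromosome 12 (NCBIM37, 17551679 to 17558308, + strand). It had 1987, 2172, 1862, 1698 and 1870 reads in the treated mice, in the order given above, and 1155, 1435, 1044, 748 and 779 in the untreated mice. The groups did not overlap, and the log2 fold change was 1.08 ± 0.14 (SE), a 2.11-fold rise (edgeR adjusted p = 2.22e-05). In 33.6% of the genes tested the counts of the 2 groups did not overlap, and after scaling this was 33.9%.

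The level of Odc1 depended on the aligner. At least 1000 bases of its transcript matched 7 other places in the genome at 90% identity or more, and the other 9 members had no such copy. GSNAP assigned 0.594 to 0.675 of the STAR count to Odc1 in the Illumina libraries, while 3 annotated pseudogenes at these places (Gm9115, Gm7278 and Gm15470) together had 131 reads per treated library with GSNAP and 12.0 with STAR. Odc1 itself had 1918 reads per treated library with STAR and 1231 with GSNAP, a wider gap than that of the pseudogenes. Places without an annotated gene were not counted, and where the other reads went was not tested. With STAR + Bowtie2 on Ion Torrent the pseudogenes had 97.0 reads per treated library against 3.0 with STAR. There Odc1 was higher as well, at 1.14 to 1.21 of the STAR count. The level of Odc1 is therefore uncertain. The fold change hardly moved, at 1.08 in the Illumina GSNAP table and 1.07 to 1.15 over all the other 5 tables.

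Gch1 encodes GTP cyclohydrolase 1, which starts the synthesis of tetrahydrobiopterin, the cofactor of nitric oxide synthases, and lies on chromosome 14 (47773570 to 47809088, - strand). It was the one tested member that did not rise. Its counts were 1252, 1005, 1302, 1224 and 1225 in treated mice and 1660, 1404, 1366, 1807 and 1824 in untreated mice, so every treated library lay below every untreated one as deposited. After TMM scaling the groups overlapped (118 ± 11.5 against 141 ± 23.6 scaled CPM, SD, n = 5 each). The log2 fold change was -0.25 ± 0.12 (SE) and was not called (edgeR adjusted p = 0.098). The call turned on scaling: with library totals alone the log2 fold change was -0.38 (edgeR adjusted p = 0.0102) and with the counts as re-sampled by the authors it was -0.42 (edgeR adjusted p = 0.00462). The median of all genes moved likewise, from 0.00 with TMM to -0.10 and -0.15. The rank-sum test on the deposited counts, which called 38.1% of genes, gave an adjusted p of 0.0328. In the Ion Torrent STAR table the treated libraries had 1512 to 1984 reads and the untreated ones 1751 to 2379, with a log2 fold change of -0.07 ± 0.12 (edgeR adjusted p = 0.719). The fitted value was below 0 in all 6 tables and called in none of them. It also passed the threshold without untreated mouse UNT_9576 (-0.31, edgeR adjusted p = 0.0485).

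**Figure D1:**
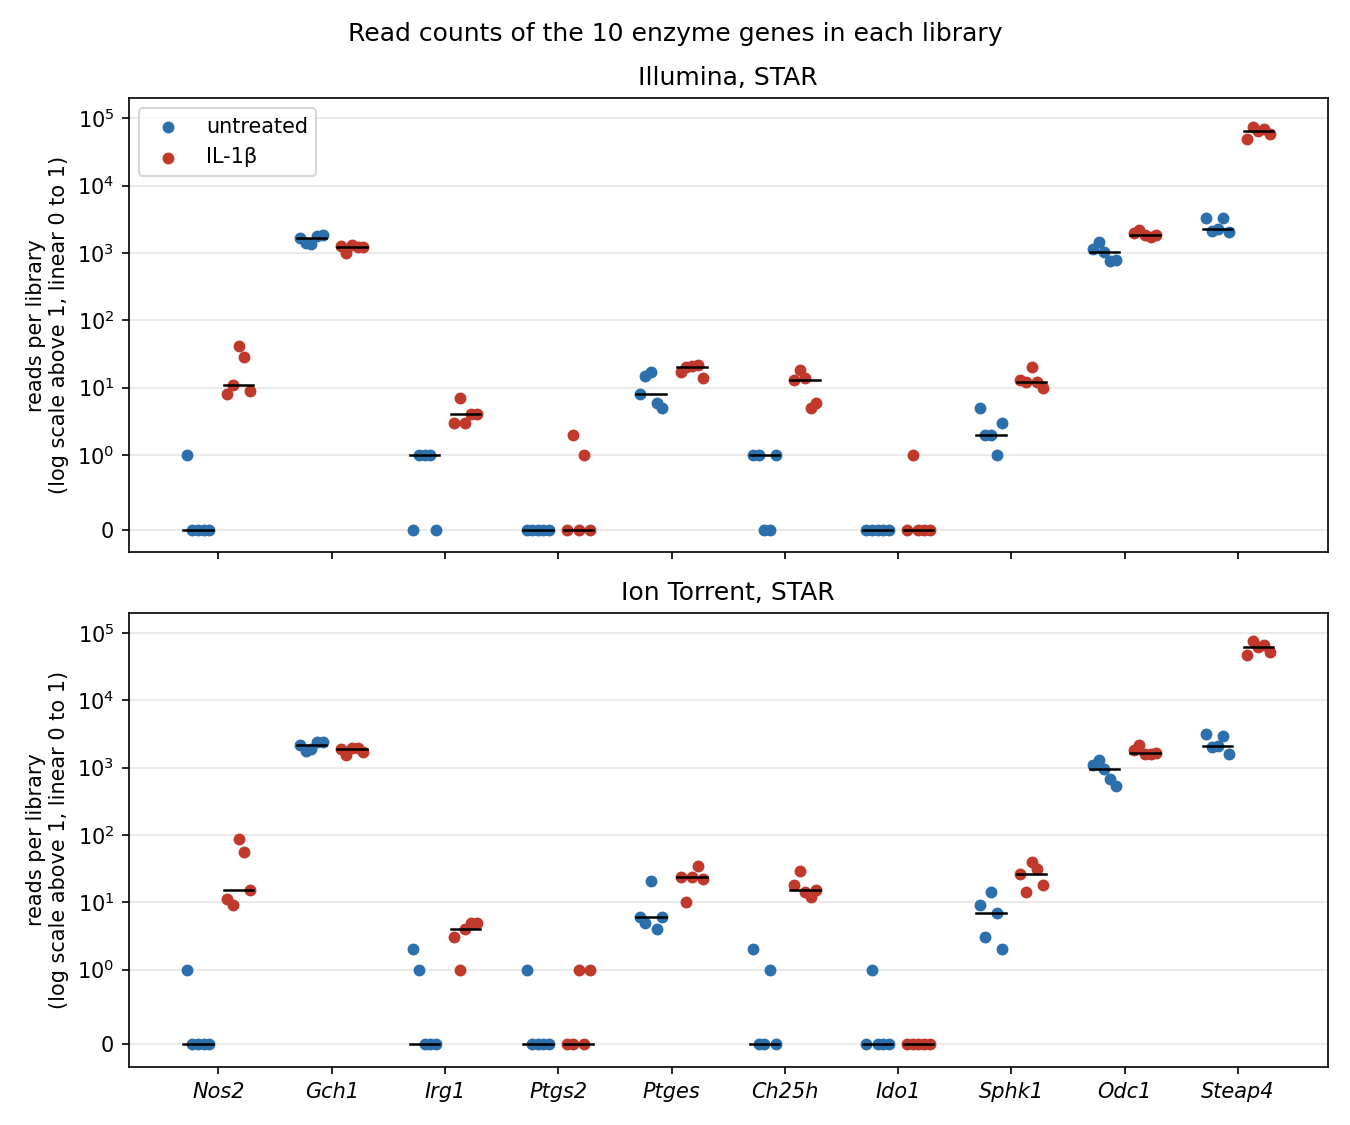
Reads per library of the 10 genes in the Illumina STAR (top) and Ion Torrent STAR (bottom) tables, on an axis that is logarithmic above 1 and linear from 0 to 1. Each point is 1 mouse (n = 5 per group) and black lines are medians. Steap4 is separated widely, Gch1 is lower with IL-1β in the top panel and overlaps in the bottom one, and Ptgs2 and Ido1 have at most 2 reads in any library.

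Nos2, Ch25h and Sphk1 had 0 to 5 reads in the untreated Illumina libraries. Nos2 and Ch25h reached the filter only through treated libraries. Sphk1 reached it on untreated libraries too in the Ion Torrent STAR + Bowtie2 table, where these had 5 to 17 reads. For Nos2 and Ch25h a difference between groups was thus built into passing it, and the number of members called is no support for a shared response. Nos2 encodes inducible nitric oxide synthase, on chromosome 11 (78734289 to 78773756, + strand). It had 8, 11, 42, 29 and 9 reads in the treated mice and a single read in untreated mouse UNT_9574. Over the groups this was 99 reads against 1, a ratio of 112 after scaling with an exact Clopper-Pearson 95% interval of 19.6 to 4466, which covers counting error only (edgeR adjusted p = 3.98e-05). The treated mice varied widely. Mice ILB_9579 and ILB_9582 had the highest counts on Illumina and also on Ion Torrent, where the treated libraries had 11, 9, 88, 55 and 15 reads. Without mouse UNT_9574, which held the only untreated read, the untreated group was at 0 and the fitted log2 fold change went from 6.09 to 7.39, which is no bound. On Ion Torrent it went from 6.92 to 8.23. Without mouse ILB_9579 the Ion Torrent value fell from 6.92 to 6.26.

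Ch25h encodes cholesterol 25-hydroxylase, which makes the antiviral oxysterol 25-hydroxycholesterol, and is a single-exon gene of 1350 bases on chromosome 19 (34548276 to 34549625, - strand). Its treated libraries had 13, 18, 14, 5 and 6 reads and its untreated ones 1, 1, 0, 0 and 1. The totals of 56 and 3 reads gave a ratio of 21.1 (95% interval 6.86 to 105, counting error only), with an edgeR adjusted p of 5.62e-05. On Ion Torrent 88 and 3 reads gave 32.8 (10.9 to 162), and without untreated mouse UNT_9574, which held 2 of those 3 reads, the fitted log2 fold change went from 4.76 to 5.68. The exon of Ch25h overlaps the antisense transcript Gm16704, which averaged 0.7 reads. Both library kits keep the strand, but whether counting used it is not given in the sources used here.

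Sphk1 encodes sphingosine kinase 1, which makes sphingosine 1-phosphate, on chromosome 11 (116392239 to 116397988, + strand). Its treated libraries had 13, 12, 20, 12 and 10 reads and its untreated ones 5, 2, 2, 1 and 3. The groups did not overlap on Illumina, and the log2 fold change was 2.49 ± 0.38 (SE, edgeR adjusted p = 7.27e-05). On Ion Torrent the counts met at 14 reads, found in treated mouse ILB_9578 and untreated mouse UNT_9576. After scaling these were 1.18 and 1.06 CPM, and the groups did not overlap. The log2 fold change there was 2.01 ± 0.42 (edgeR adjusted p = 0.000961). The other Ion Torrent tables gave 1.83 and 1.74.

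Ptges had a low level in every library of both groups. It encodes microsomal prostaglandin E synthase-1, the inducible last step to prostaglandin E2, on chromosome 2 (30744991 to 30785383, - strand). Its treated libraries had 17, 20, 21, 22 and 14 reads and its untreated ones 8, 15, 17, 6 and 5, so untreated mice UNT_9575 and UNT_9576 reached into the treated range. The log2 fold change was 1.05 ± 0.31 (SE) with an edgeR adjusted p of 0.0118. This call did not hold everywhere. The rank-sum test gave an adjusted p of 0.1 and called Ptges in none of the 6 tables (rank-sum adjusted p 0.0575 to 0.242). With Illumina GSNAP the log2 fold change was 0.79 ± 0.36 with an edgeR adjusted p of 0.0847. The Ion Torrent STAR table gave 1.60 ± 0.44 (edgeR adjusted p = 0.00668), or 2.27 without untreated mouse UNT_9576, whose 21 reads stood above the 4 to 6 of the other untreated mice.

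Irg1, Ptgs2 and Ido1 were at or near 0. Irg1, the macrophage enzyme that makes itaconate from cis-aconitate, had 3, 7, 3, 4 and 4 reads in treated and 0, 1, 1, 1 and 0 in untreated libraries. These 21 and 3 reads gave a ratio of 7.92 (95% interval 2.36 to 41.5, counting error only). With no filter on low counts, over 19704 genes, its edgeR adjusted p was 0.00207, whereas on Ion Torrent the groups overlapped, at 1 to 5 and 0 to 2 reads. Ptgs2, the inducible cyclooxygenase, had 2 reads in mouse ILB_9578, 1 in mouse ILB_9582 and none elsewhere on Illumina. Ido1, the inducible tryptophan-degrading dioxygenase, had 1 read in mouse ILB_9578 and none elsewhere on Illumina, and 1 read in UNT_9575 in the Ion Torrent STAR table. Both groups were at or under the floor of 3 reads for these 2 genes, so no fold is given, and a difference was not detectable at a depth of 10568530 to 11046256 reads per library.

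Per kilobase of exon, the treated livers put Steap4 first at 2004 ± 337 RPKM, that is scaled CPM per kilobase of exon (SD, n = 5), then Odc1 at 74.1 ± 6.43 and Gch1 at 42.7 ± 4.13. Below them lay Ch25h at 0.815 ± 0.4, Ptges at 0.471 ± 0.0834, Nos2 at 0.467 ± 0.359 and Sphk1 at 0.277 ± 0.0801. In this table the first 3 did not overlap with their neighbours, and the last 4 each overlapped with the next. The order of Odc1 and Gch1 rests on the aligner: with Illumina GSNAP they overlapped in treated livers, at 44.8 ± 3.76 and 44.6 ± 4.16 RPKM. In untreated livers the order of the 3 abundant genes was Steap4 at 71.9 ± 16.5, Gch1 at 50.8 ± 8.51 and Odc1 at 35.1 ± 8.63, and here each overlapped with the next. On Ion Torrent, Odc1 and Gch1 overlapped in treated livers too, at 58.8 ± 8.07 and 55.3 ± 6.11 RPKM.

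**Figure D2:**
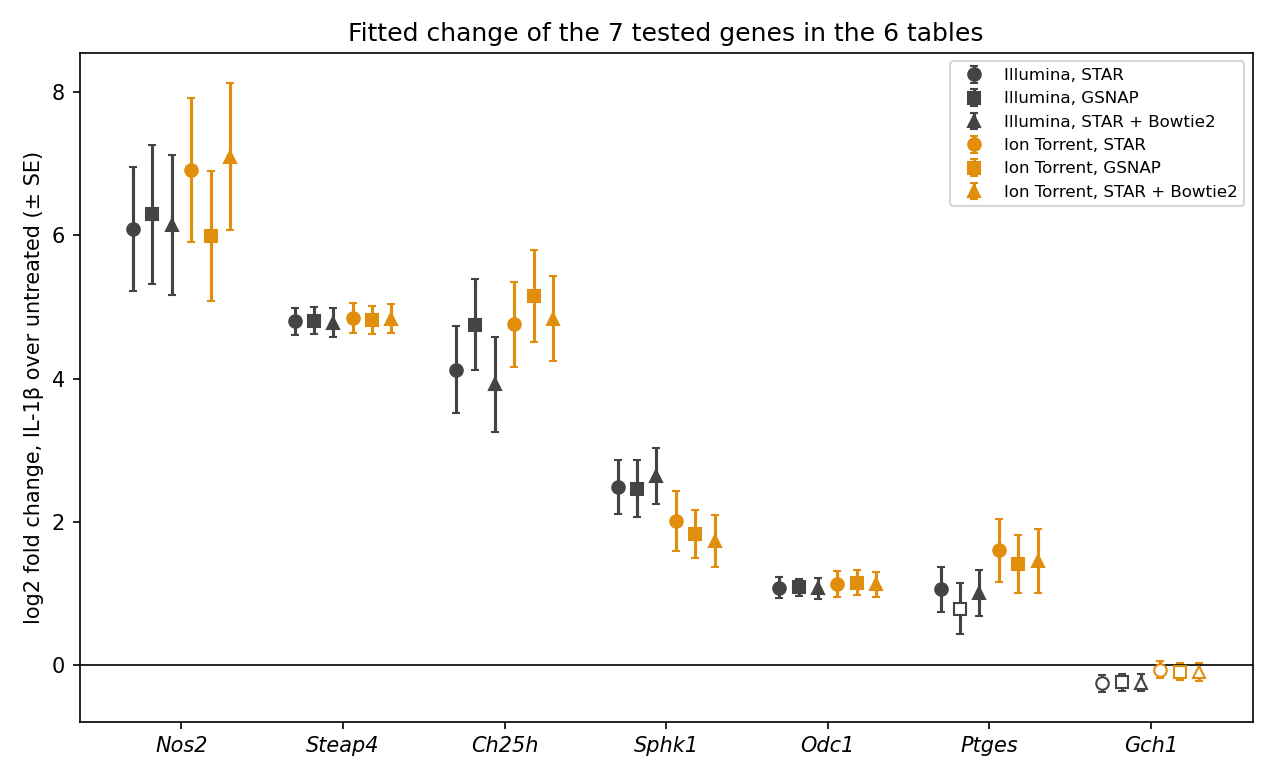
Fitted log2 fold change (IL-1β over untreated, ± SE, vertical axis) of the 7 tested genes in the 6 tables, with filled symbols for an edgeR adjusted p below 0.05. Steap4 and Odc1 hardly move between tables, Nos2 has the widest errors, Ptges is open in the Illumina GSNAP table and Gch1 is open in all 6.

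In the other tables edgeR called 47.5% (Illumina GSNAP), 47.4% (Illumina STAR + Bowtie2), 42.1% (Ion Torrent STAR), 46.4% (Ion Torrent GSNAP) and 46.7% (Ion Torrent STAR + Bowtie2) of genes. Nos2, Ch25h, Sphk1, Odc1 and Steap4 were higher with IL-1β and called in all 6 tables, and Ptges in all but Illumina GSNAP. The tables share mice and libraries, so they are no independent repeats. Whether the platforms measured different responses was tested by the platform-by-treatment term over the 20 STAR libraries with the mouse as a block. None of the 7 members passed (edgeR), nor with DESeq2, against 0.00642% of all genes, which is 1 gene. At an unadjusted p under 0.05 there was 1 member, Gch1, with a response 0.20 ± 0.08 (SE) higher on Ion Torrent (edgeR adjusted p = 0.691), and 1090 of all genes. For Steap4 the difference was 0.06 ± 0.07 and for Odc1 0.08 ± 0.09. For Nos2 and Ch25h the errors of 1.97 and 1.27 leave large differences undetectable. With GSNAP these errors were 0.98 and 1.86, so they are themselves unsteady.

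Ratios to a counterpart in the same library need no scaling. Of 13 pairs compared, 8 had more than 3 reads of both genes in each treatment group, and the ratio of 6 of these differed between treatments at an exact two-sided permutation p below 0.05 (5 of 8 on Ion Torrent). The smallest possible p was 0.00794, which becomes 0.0115 when adjusted over the 13 pairs. The pairs of Nos2, Ptgs2 and Ido1 rest on counts at the floor in at least 1 group. There the added 0.5 sets the ratio, and no difference is read from these pairs. In treated livers alone, the log2 ratio of Nos2 to the endothelial Nos3 ran from -2.72 to 0.43, the highest in mouse ILB_9579. Nos3 itself rose (log2 fold change 1.23 ± 0.23, edgeR adjusted p = 0.00048). Sphk1 rose against Sphk2 by 2.11 (exact p = 0.00794), with the treated ratios at -5.28 to -3.63 and the untreated at -7.56 to -5.65. Odc1 rose against Azin1, the antizyme inhibitor that protects it, by 1.26 (exact p = 0.00794).

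Steap4 rose against Steap2 by 4.32 and against Steap3 by 5.41 (exact p = 0.00794 for each). Against Steap1 it rose by 1.65 (exact p = 0.00794), and Steap1 itself went from 3 to 5 reads in untreated libraries to 24 to 40 in treated ones. On Ion Torrent the ratio to Steap1 differed by 0.62 (exact p = 0.349). There the log2 ratio of untreated mouse UNT_9574, at 12.61, was set by the added 0.5. The other untreated mice were at 9.16 to 10.2 and the treated mice at 10.55 to 11.23, so this test leaves the difference undecided. Ptges fell against Ptges2 by 0.93 (exact p = 0.0159, adjusted 0.0206). Ptges2, another prostaglandin E synthase, rose from 155 ± 28.2 to 581 ± 66.8 reads (SD, n = 5 each). On Ion Torrent this ratio differed by -0.20 (exact p = 0.675). Against Ptges3 the Ptges ratio differed by 0.86 (exact p = 0.0794). The ratio of Gch1 to its feedback protein Gchfr differed by 0.04 (exact p = 0.841) on Illumina and by 0.48 (exact p = 0.0238, adjusted 0.0387) on Ion Torrent.

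**Figure D3:**
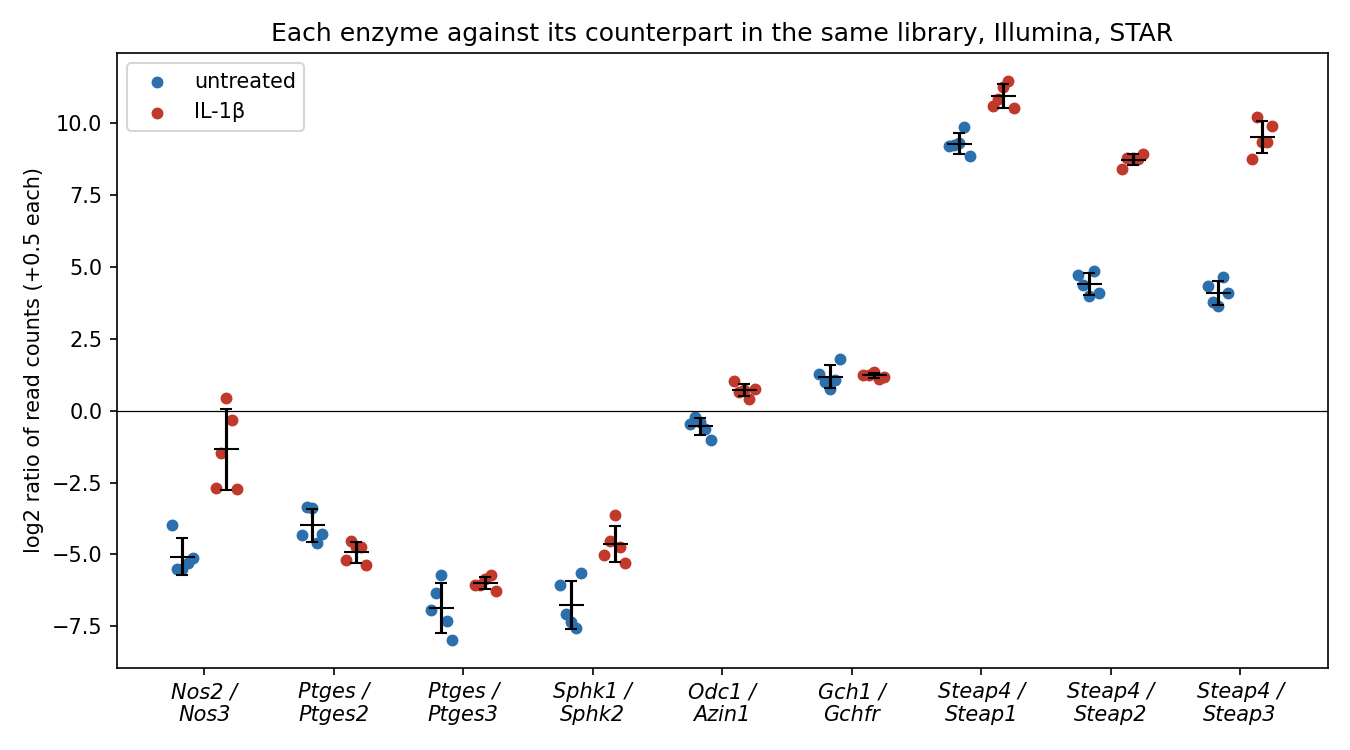
Log2 ratio of the reads of an enzyme gene to those of its counterpart in the same Illumina STAR library, with 0.5 added to each count. Points are mice (n = 5 per group), and bars are the mean ± SD. The groups are apart for Sphk1 over Sphk2, Odc1 over Azin1 and Steap4 over each other STEAP gene, and overlap for Gch1 over Gchfr and for both Ptges pairs. Untreated Nos2 over Nos3 is set by the added 0.5, since 4 of these 5 libraries had no Nos2 read.

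Genes that share a pathway with the members were described from 9 lists of 110 genes, of which 100 were tested. Of these, 13 rose and 49 fell (edgeR), and their median log2 fold change was -0.33 against 0.00 for all genes. Of all genes tested, 3541 rose and 3575 fell. With library totals alone 13 partner genes rose and 58 fell, while of all genes 2746 rose and 4335 fell with a median of -0.10.

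The arginine list had 3 genes higher and 3 lower of 9. Slc7a1, an arginine transporter, rose from 9.0 ± 2.55 to 52.0 ± 10.6 reads (log2 fold change 2.69 ± 0.23), and Nos3 is given above. The urea-cycle enzyme Asl fell by 0.78 on the log2 scale and Ddah1, which degrades inhibitors of nitric oxide synthase, fell by 0.63. In the tetrahydrobiopterin list 4 of 7 genes were called and these were lower. Pts, the step after Gch1, fell by 0.73, while Pcbd1 and the recycling enzyme Qdpr fell by 0.62 and 0.57. Gchfr was at -0.29 (edgeR adjusted p = 0.0675) and was called on Ion Torrent (-0.55, edgeR adjusted p = 0.00147).

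Around Odc1, 2 genes rose and 2 fell of 11. Srm, the spermidine synthase that uses the product of Odc1, rose from 339 ± 140 to 771 ± 114 reads (1.37 ± 0.21). Sat1, which acetylates polyamines for export, rose by 1.19 ± 0.11, and the antizyme Oaz2 fell by 0.53. Azin1 was at -0.16 (edgeR adjusted p = 0.336).

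Of the 15 tested prostaglandin genes 2 rose and 5 fell. Ptges2 was the higher of the 2, at 2.09 ± 0.13 with an edgeR adjusted p of 1e-08. The prostaglandin-degrading enzymes fell, Hpgd by 1.11 and Cbr1 by 1.15, as did Ptgr1 by 0.84. The call of Ptgr1 was not made on Ion Torrent (-0.40, edgeR adjusted p = 0.284) or by rank-sum (adjusted p = 0.0722). Ptgs1, the constitutive cyclooxygenase, was at -0.42 (edgeR adjusted p = 0.0933) and Ptges3 at 0.28 (edgeR adjusted p = 0.0746).

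Of 11 genes of tryptophan breakdown 8 fell and the other 3 were not called. Ido2, the paralog of Ido1, fell from 1393 ± 96.3 to 258 ± 27.3 reads, a log2 change of -2.25 ± 0.10 (edgeR adjusted p = 2.92e-10), with 226 to 284 reads in treated and 1290 to 1497 in untreated libraries. Tdo2, the main tryptophan dioxygenase of hepatocytes, was at -0.12 (edgeR adjusted p = 0.538) with 17815 reads per treated library. Acmsd, Afmid and Kynu, which act further down the kynurenine route, fell by 1.30, 1.19 and 1.10.

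In the sphingosine 1-phosphate list 2 genes rose and 9 fell of 17. The exporter Spns2 fell from 352 ± 67.9 to 70.4 ± 26.6 reads (-2.14 ± 0.20) and the receptor S1pr5 fell by 2.49, whereas the receptor S1pr3 rose by 1.86 ± 0.21. The phosphatase Ppap2b fell by 0.94, and Sphk2 was at 0.31 (edgeR adjusted p = 0.198). Of 6 oxysterol genes 3 fell and 3 were not called, and the bile acid enzymes Cyp39a1 and Hsd3b7 fell by 0.99 and 0.64.

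The iron list around Steap4 had 4 genes higher and 2 lower of 7, or 3 and 2 on Ion Torrent. Slc11a2, which carries ferrous iron, rose from 510 ± 91.5 to 2101 ± 234 reads (2.23 ± 0.12), and Slc39a14, a hepatocyte importer of iron and zinc, rose from 4577 ± 283 to 14304 ± 825 (1.82 ± 0.10). Steap1 and Steap2 rose by 3.28 and 0.50, although the call of Steap2 was not made on Ion Torrent (0.39, edgeR adjusted p = 0.0509). The transferrin receptor Tfrc fell by 1.05 and Steap3 by 0.57. In the list around Irg1 13 of 17 fell and 4 were not called: Idh3a by 0.66, Clybl, which clears an itaconate product, by 0.60, Sdhd by 0.54 and Aco1 by 0.53. By rank-sum on the deposited counts, where 2142 of all genes were higher and 3790 lower with a median of -0.15, all 17 were lower.

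**Figure D4:**
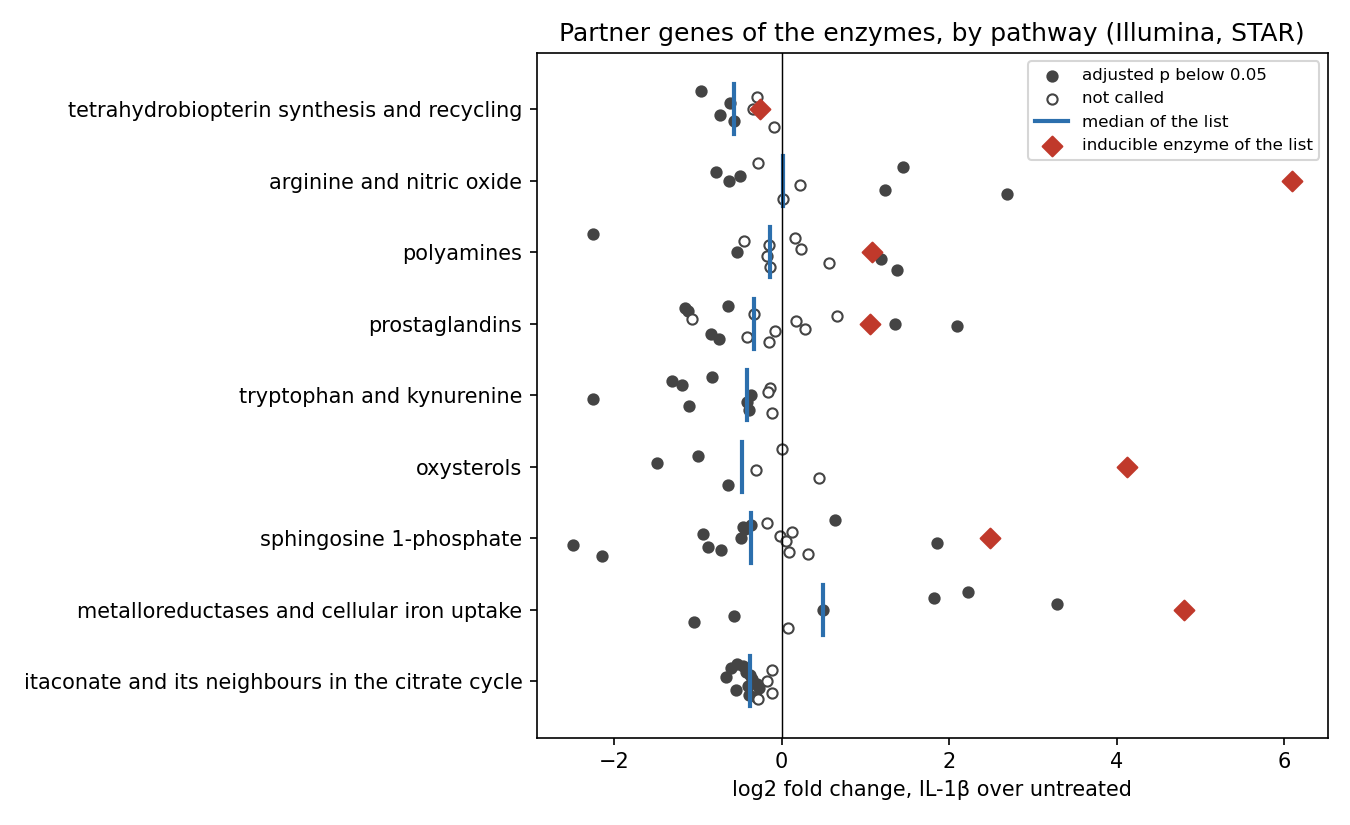
Log2 fold change (horizontal axis, Illumina STAR, edgeR) of the 100 tested partner genes, one point each, by pathway list. Blue lines are list medians and red diamonds are Gch1, Nos2, Odc1, Ptges, Ch25h, Sphk1 and Steap4 beside their lists. All diamonds but that of Gch1 are right of 0, while the medians of 7 of the 9 lists are left of it.

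The genes most like a member were found by the root mean square difference over the 10 Illumina STAR libraries of log2 scaled counts (plus 0.1) centred on the untreated mean, among 10841 genes with a mean of at least 20 reads. For Steap4 these were Mthfd2 (0.27, log2 fold change 4.70) and Serpina3n (0.35, log2 fold change 4.42). For Odc1 they were Preb (0.09) and Trmt6 (0.10), and for Gch1 Hnrnpl (0.09) and Ap3b1 (0.10). The other members had too few reads. The distance includes the size of the change, so near-equal fold changes follow from how the most alike genes were chosen.

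Markers of several cell types moved with treatment. Hepatocyte markers were abundant in every library (76785 to 95066 CPM, counts scaled by library size, summed over 10 markers in treated and 103325 to 123619 in untreated livers, 2 called higher and 3 lower), with Alb falling by 0.53. All 10 tested of 12 neutrophil markers rose, with a summed level of 61.8 to 138 CPM in treated and 3.35 to 8.24 in untreated livers and none of the 12 at 0 throughout. S100a9, S100a8 and Csf3r rose by 5.29, 5.18 and 2.27. Among the treated mice, ILB_9579 had the lowest summed neutrophil level (61.8 CPM) and the highest Nos2 and Sphk1 counts, on both platforms. Mouse ILB_9578 had the highest neutrophil level (138 CPM) and the highest Ch25h and Steap4 counts, on both platforms. Mouse ILB_9582 was next highest in neutrophil level (119 CPM), in Nos2 count and in Steap4 count, on both platforms. Its Ch25h count was the lowest of the treated mice, at 5 reads on Illumina and 12 on Ion Torrent. The Nos2 count of mouse ILB_9578 was 11 on Illumina and, at 9 reads, the lowest of the treated mice on Ion Torrent. The part of neutrophils in the rise of Nos2, Ch25h, Sphk1, Ptges and Steap4 was not tested. Of 10 Kupffer cell and macrophage markers 1 rose and 3 fell (107 to 238 against 178 to 302 CPM). The riser was Marco, at 2.16, and those that fell were Clec4f at -0.60, Vsig4 at -0.91 and Csf1r at -0.62. Cd5l at -0.52 and Lyz2 at -0.10 were not called. Endothelial markers were called 3 higher and 4 lower of 10 (125 to 195 against 145 to 221 CPM), 2 of 8 stellate cell markers were lower (204 to 320 against 286 to 370), and 2 of 8 tested lymphocyte markers were lower (1.51 to 4.26 against 4.36 to 7.33), by edgeR. No marker of any list was at 0 in every library, and the part of these shifts in the members' values was not tested.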

How the data were processed

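Liver RNA of 10 mice was sequenced on 2 platforms. Per the labels and the study's methods, the authors aligned reads to mm9 with STAR 2.5.1b, GSNAP or STAR followed by Bowtie2 2.2.9, removed rRNA and mitochondrial reads, drew, within a table, equally many gene-mapping reads from every library, and counted them per Ensembl gene. The deposited values are whole-number counts, called reads here. Whether an Illumina count is a read or a pair is not given in the tables. All 60 columns were used. Levels were compared between tables only for Odc1 and its copies and for the order of Odc1 and Gch1. The counts of Odc1 and its copies set side by side between aligners were not scaled. The totals per library were 10568530 to 12008799 (Illumina) and 12199528 to 16439683 (Ion Torrent).

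Members and gene lists were chosen with earlier results of these data known. Genes with at least 5 reads in 5 libraries of any table were tested with edgeR 4.0.16 (TMM, quasi-likelihood, Benjamini-Hochberg, threshold 0.05), in R 4.3.3. The SE of a fit was taken as the absolute log2 fold change over the square root of the F statistic, which is approximate. Alternatives were the study's rank-sum test, DESeq2 1.42.0, limma 3.58.1, other scalings and filters, the other tables and leaving out each mouse. Leaving out mice and the rank-sum test on Ion Torrent, levels with GSNAP and the limit of 3 reads on pairs were added after seeing the data. Ratios used exact permutation tests (scipy 1.17.1). Copies were sought with minimap2 2.31-r1302 in NCBIM37. The platform-by-treatment fit had the mouse as a block: each mouse gave RNA to both libraries, and their deviations correlated at 0.547 to 0.715 for 9 mice and 0.248 for mouse UNT_9584.

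Of partner genes, up to 4 per list were named (adjusted p below 0.05, mean of at least 20 reads, largest change), with every counterpart. Up to 3 markers per list were named by mean count, and in the Kupffer cell and macrophage list every called marker as well. Acer2 had 2 rows and was left out. The value of 1 partner gene that this rule named is not reported here. The fits were tested on simulated data. A first run, with changed genes down to a mean of 10 reads, missed the recovery set as a pass mark for limma-voom and the platform term, and the minimum was then raised to 50 reads, where it was met. That pass says nothing of power for members with fewer reads (Nos2, Ch25h, Ptges, Sphk1).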

Additional observations from a re-analysis of the deposited data

Results flagged for a closer look

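Among groups of 5 libraries (10 members, 2 treatments, Illumina STAR and Ion Torrent STAR), 37 had any spread. Of these, 8 held a library far from the others by Dixon's ratio. For continuous values chance flags about 1 in 20, but a single read against 0 in the other libraries is always flagged. The 8 can therefore not be set against that rate. Mouse ILB_9578 stood out among treated Illumina libraries for Gch1, lowest at 1005 reads, for Irg1, highest at 7 reads, and for Ido1, with 1 read where the others had 0. Untreated mouse UNT_9576 stood out for Ptges on Ion Torrent, at 21 reads. The remaining 4 are single reads against 0: Nos2 in untreated mouse UNT_9574 on both platforms (1 read each), Ptgs2 in mouse UNT_9574 on Ion Torrent (1 read) and Ido1 in untreated mouse UNT_9575 on Ion Torrent (1 read).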

How the results depend on the processing

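edgeR called 6 of the 7 tested members in the Illumina STAR table, and 5 to 7 under every alternative of test, scaling, filter, table or left-out mouse (6 to 7 without each mouse). Of all genes edgeR called 45.7% and the rank-sum test 38.1%, and Nos2 and Ch25h passed the filter only through treated libraries, so this count is no support for the members. Steap4, Odc1, Nos2, Ch25h and Sphk1 kept direction and call in all of these, and Ptges kept its direction. The calls of Ptges (rank-sum, Illumina GSNAP) and Gch1 (library totals, no size term, rank-sum, without mouse UNT_9576) that changed are given above. The fitted value of Nos2 ranged from 5.61 to 7.39 without each mouse and was 4.88 with limma-voom. Without each mouse, the Ion Torrent value of Gch1 ranged from -0.13 to 0.018, so its direction was not stable.

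The libraries of a mouse are paired, and without the replicate block 0 members passed the platform-by-treatment test, as with it and with DESeq2 and the block. The term for Nos2 turned to -0.44 with GSNAP. Without each mouse that of Sphk1 ranged from -0.76 to 0.055, that of Odc1 from -0.0036 (without mouse UNT_9584) to 0.15, and the log2 ratio of Gch1 to Gchfr from -0.067 to 0.19. The ratio of Ido1 to Tdo2, with Ido1 at the floor, was -0.17 on Ion Torrent and 0.24 to 0.74 without each mouse. Of the partner genes 58 to 71 were called under the alternatives against 62. The cause of these shifts was not tested. Counts under about 20 reads limit Nos2, Ch25h, Sphk1, Ptges and Irg1.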
